A study of Saccharomyces cerevisiae with 32 samples.

Results

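The comparison described here set the wild-type DED1 strain (NSY10) at 37 °C against the wild-type TIF1 strain (NSY20) at 37 °C, the control strains of a pair of ribosome profiling experiments in the budding yeast Saccharomyces cerevisiae. Its members were the 8 libraries of these control strains, out of 32 libraries in the series: 2 footprint and 2 mRNA libraries of wild-type DED1, and 2 footprint and 2 mRNA libraries of wild-type TIF1. They were chosen by strain and temperature, and neither strain carries a mutant helicase allele per its label. Both were grown in synthetic complete medium, shifted to 37 °C and treated for 2 min with 100 µg/ml cycloheximide, which stops elongating ribosomes, per the labels' protocols. The sources used here do not say how each strain carries its wild-type gene, what other markers it has or how long the shift lasted.

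Ded1 and eIF4A, the product of TIF1 and of its near-identical partner TIF2, are DEAD-box RNA helicases that help the small ribosomal subunit bind mRNAs and scan to the start codon. Ribosome profiling counts the mRNA pieces that ribosomes protect from RNase I, called footprints. The footprint level of a gene relative to its mRNA level is its translational efficiency (TE). Each strain served in the study as the control for a temperature-sensitive mutant of the same helicase gene, and the study itself set each mutant against its own control. The comparison below asks how far these controls themselves differ at a shared temperature.

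The files held 1 log2 value per gene for each strain and assay, standing for 2 libraries, so differences could not be checked between replicates and no p-value is given. Strain and experiment coincided, since wild-type DED1 belonged to experiment 2 and wild-type TIF1 to experiment 4, and the strain and the experiment cannot be told apart. All differences are log2 values of wild-type DED1 minus wild-type TIF1, centred on the median gene, and "higher" or "lower" means relative to that gene. In these bulk samples, fewer cells with an mRNA and less mRNA per cell cannot be told apart. The footprint columns held about 10.4 M reads for wild-type DED1 and 11.8 M for wild-type TIF1, as estimated from the spacing of low values. For mRNA the read depth is unknown. Of 4919 genes in both tables, 3974 reached a mean abundance of 100 over the strains in each assay and are compared below, with a median of 592 footprint reads in wild-type DED1 and 642.5 in wild-type TIF1. Just inside that floor lay YKU80 at 100.1, and just outside lay ATS1 at 99.99. The floor was set on deposited values, before centring. In these, wild-type DED1 lay above wild-type TIF1 by a median of 1.64 for footprints and 1.6 for mRNA. Genes high in wild-type DED1 therefore passed the floor more easily than genes high in wild-type TIF1. Deposited mRNA levels carry 1 decimal, so an mRNA difference can be off by up to 0.1 from rounding alone.

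Ribosome occupancy was close to equal in both wild types, and a small set of genes stood far outside the rest. Across the 3974 genes, footprint differences had a standard deviation of 0.34, and 92.1% of genes lay within 0.5 of 0. Footprints were at least 2-fold higher in wild-type DED1 for 16 genes, 0.403% of those compared, and at least 2-fold lower for 20 genes, 0.503%. The genes with higher footprints included DED1, the histidine genes HIS3 and HIS4, the purine genes ADE17 and ADE12 and the transcription factor gene GCN4. Those with lower footprints included genes of mating and of leucine synthesis, and the iron uptake gene FET3.

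mRNA levels differed more between the strains than footprints did. The mRNA differences had a standard deviation of 0.45, and 81.2% lay within 0.5 of 0. mRNA was at least 2-fold higher in wild-type DED1 for 71 genes, 1.79%, and at least 2-fold lower for 93 genes, 2.34%. Of these differences, 43 were exactly 1 or -1, the least that counts as 2-fold. With the extra digits of the deposited differences, 59 and 81 genes passed, and all of them were among the 71 and the 93. The footprint levels of the strains had a Spearman rho of 0.97 across genes and the mRNA levels one of 0.91. The mRNA difference and the footprint difference of a gene had a rho of 0.27. Genes are not independent replicates, and these are descriptions.

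**Figure D1:**
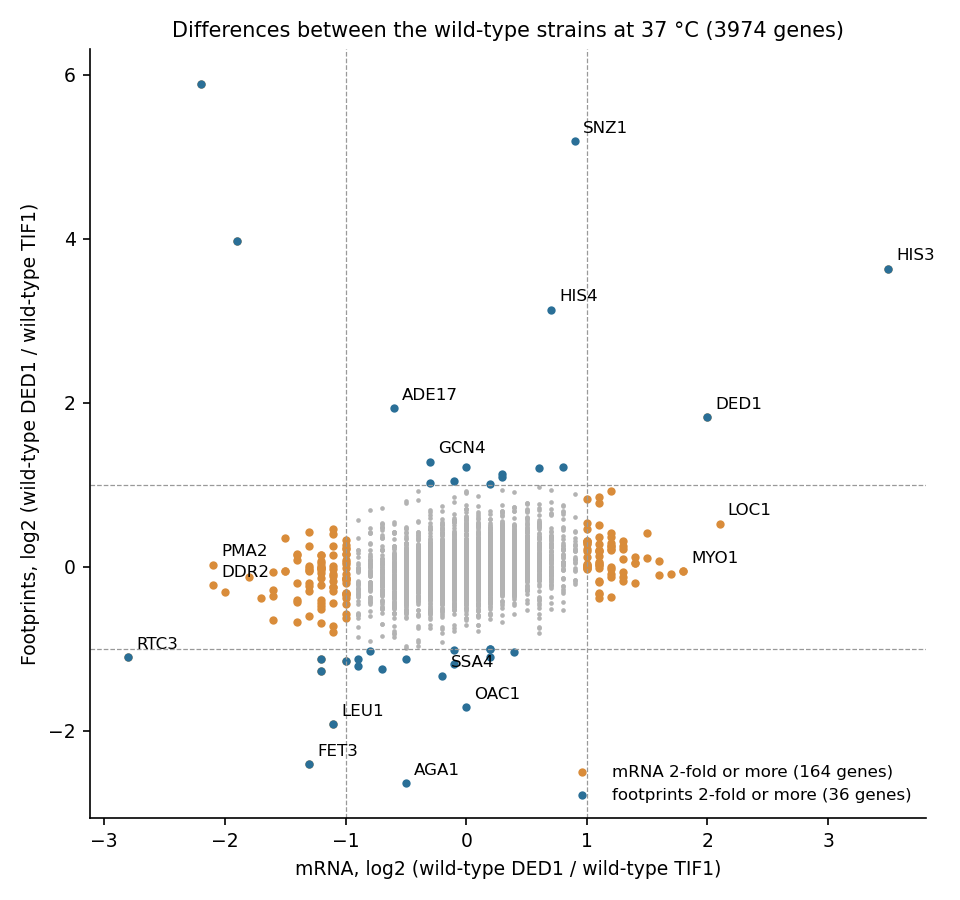
mRNA difference (horizontal) and footprint difference (vertical) of the 3974 genes, both as log2 of wild-type DED1 over wild-type TIF1 at 37 °C, with 1 point per gene and dashed lines at 2-fold. Orange points mark the 164 genes past 2-fold in mRNA, and blue points, drawn on top, the 36 past 2-fold in footprints. HIS3 and DED1 sit high on both axes, and most orange points lie near 0 on the footprint axis.

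DED1 and HIS3 were higher in wild-type DED1 in both assays. DED1, the helicase gene that the strain is named for, had 21920 footprint reads in wild-type DED1 and 6608 in wild-type TIF1. Its footprint difference was 1.82, with a 95% counting interval of 1.78 to 1.86, and its mRNA difference was 2.0. HIS3, which encodes a histidine synthesis enzyme and is widely used as a selectable marker, had 9674 reads in wild-type DED1 and 829 in wild-type TIF1. The HIS3 footprint difference was 3.64 and its mRNA difference 3.5, the highest mRNA difference among the 3974 genes. TE, in which a shared change of both assays cancels, differed by -0.18 for DED1 and 0.14 for HIS3.

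DED1 and HIS3 are close neighbours on chromosome XV. The genes around them were measured too. MRM1, on the HIS3 side, had an mRNA difference of 0.2 and a footprint difference of -0.08. NOC2, on the DED1 side, had 0.5 and 0.10, and GEP3, which lay under the abundance floor, had 0.8 and 0.13. None of these 3 neighbours was past 2-fold in either assay. By chromosome, the median footprint difference lay between -0.05 and 0.04 and the median mRNA difference between -0.1 and 0.1 over all 16 chromosomes.

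The high HIS3 level was not seen in the other wild-type columns. To set columns side by side, each was shifted by its median difference from wild-type TIF1 at 37 °C, which gives what is called an aligned level below. The aligned HIS3 mRNA level was 11.6 in wild-type DED1 at 37 °C, 8.1 in wild-type TIF1 at 37 °C, 7.5 in wild-type TIF1 at 30 °C and 8.5 in the wild-type DED1 strain kept at 15 °C. That last strain (NSY4) is a separate wild-type DED1 strain per the labels. For DED1 mRNA the aligned levels were 11.0, 9.0, 8.5 and 10.6 in the same 4 columns, so DED1 was high in the columns of both wild-type DED1 strains. The 15 °C column differs in temperature and experiment too, and these cannot be told apart from the strain. Of the other helicase genes, TIF2 had a footprint difference of -0.10 and an mRNA difference of -0.3. DBP2, another DEAD-box helicase, had the next highest footprint difference after DED1 on that list, at 0.91. TIF1 and DBP1 were not analysed here.

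**Figure D2:**
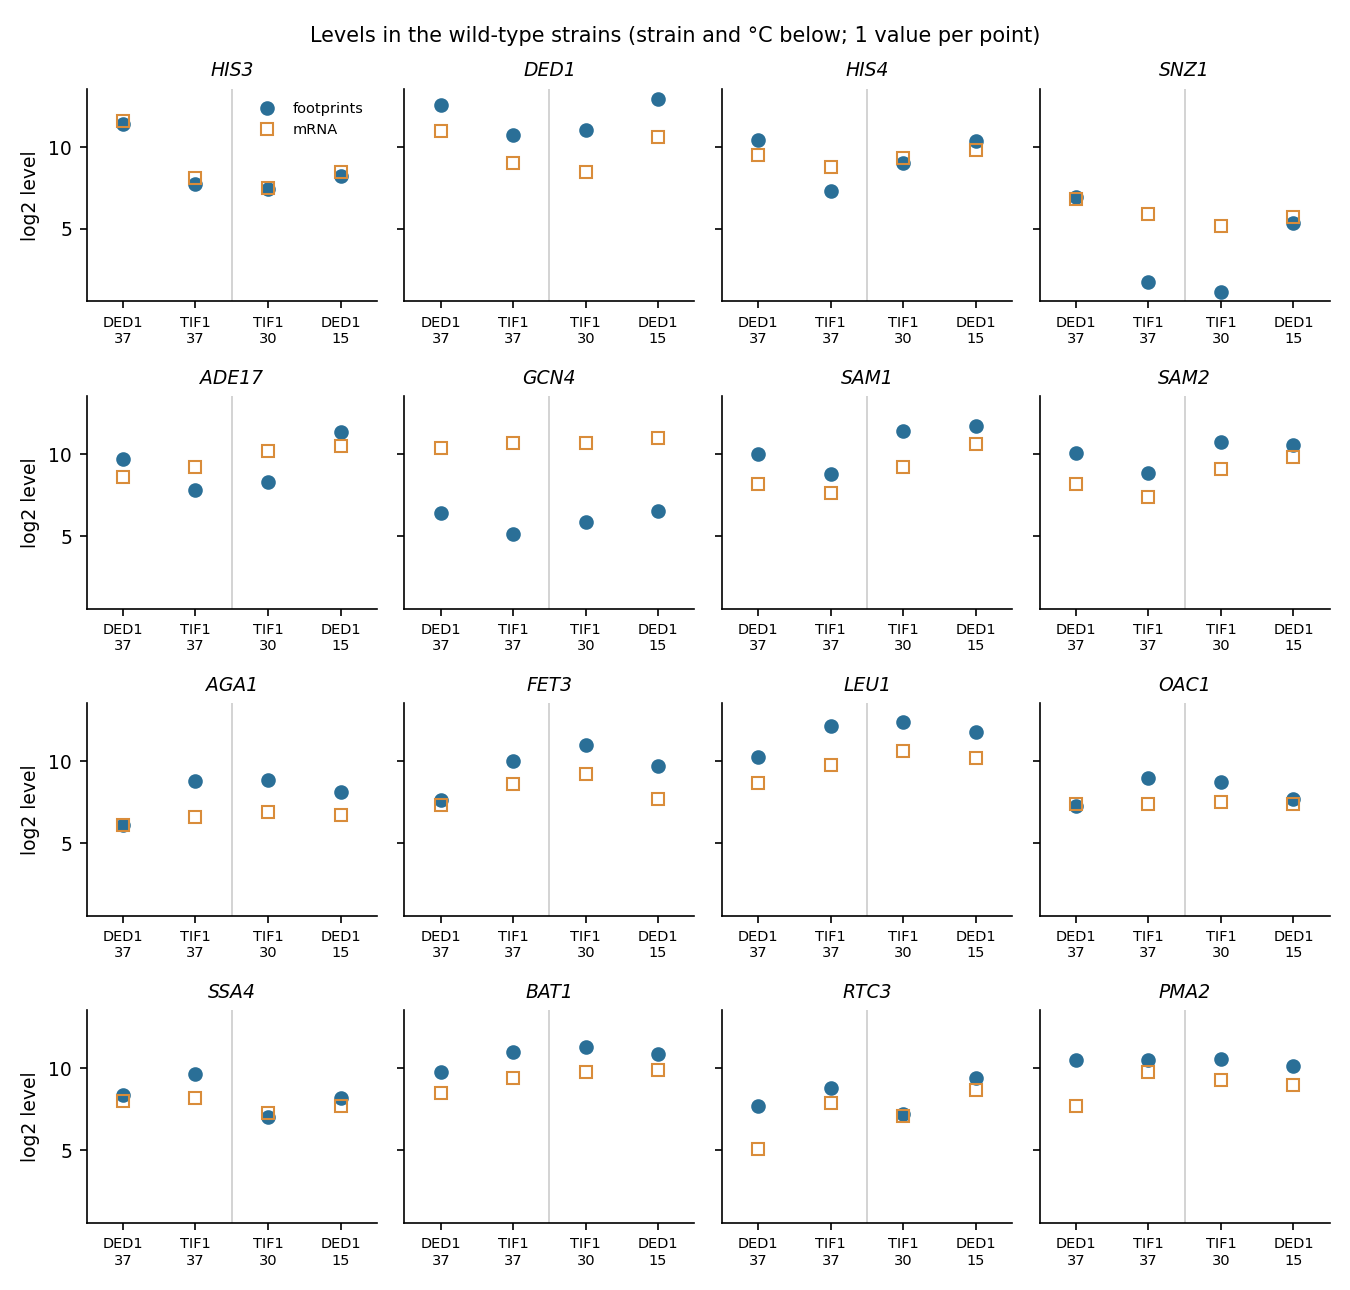
Aligned log2 levels (vertical) of footprints (filled circles) and mRNA (open squares) for 16 named genes in the wild-type columns, with strain and temperature in °C on the horizontal axis and 1 deposited value per point. Left of the grey line are the strains compared at 37 °C. HIS3 stands out in wild-type DED1 at 37 °C alone of these columns, while DED1 is also high in the strain at 15 °C.

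GCN4 and genes of histidine and purine synthesis had more footprints in wild-type DED1, and several of them did not have higher mRNA. GCN4, whose mRNA carries short upstream reading frames and whose protein activates amino acid synthesis genes, had 307 footprint reads in wild-type DED1 and 134 in wild-type TIF1. Its footprint difference was 1.28 (counting interval 0.99 to 1.59), its mRNA difference -0.3 and its TE difference 1.58. In footprints, GCN4 passed the abundance floor only through its level in wild-type DED1. The aligned GCN4 footprint level of 5.13 in wild-type TIF1 at 37 °C was the lowest of the wild-type columns, below 6.41 in wild-type DED1 at 37 °C, 5.87 in wild-type TIF1 at 30 °C and 6.52 in wild-type DED1 at 15 °C. HIS4, which encodes an enzyme of several histidine synthesis steps, had 5078 reads in wild-type DED1 and 615 in wild-type TIF1. The HIS4 footprint difference was 3.14 against an mRNA difference of 0.7, so its TE difference was 2.44. HIS1, the enzyme of the first step, had a footprint difference of 0.92 and an mRNA difference of -0.4.

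All 7 histidine synthesis genes were measured. Their median footprint difference was 0.62, against -0.016 for all genes compared, and 2 of 7 were past 2-fold. HIS3 was alone of the 7 in having mRNA past 2-fold, and HIS2 was alone in having a footprint difference below 0, at -0.22. The median TE difference of the 7 was 0.52, against -0.014 for all genes.

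Footprint values of the purine and one-carbon genes were mostly higher and their mRNA values mostly lower. Of 25 genes listed, 23 passed the floor, and 17 of these had a footprint difference above 0 while 15 had an mRNA difference below 0. ADE17, one of the enzymes of the last purine steps, had 3061 reads in wild-type DED1 and 851 in wild-type TIF1. It had a footprint difference of 1.94, an mRNA difference of -0.6 and a TE difference of 2.54. ADE12, which leads from IMP towards AMP, had a footprint difference of 1.04 and an mRNA difference of -0.1. In TE, 4 of the 23 genes were past 2-fold higher, against 2.44% of all genes: ADE17, ADE12, GCV1 at 1.18 and SHM2 at 1.05. GCV1 belongs to the glycine cleavage system and SHM2 makes glycine from serine.

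SAM1 and SAM2, which make S-adenosylmethionine, had footprint differences of 1.20 and 1.21. They are so alike in sequence that their single values are uncertain. SAM1 had 3691 reads in wild-type DED1 and 1707 in wild-type TIF1, and SAM2 had 3929 and 1804. Their mRNA differences were 0.6 and 0.8. In wild-type TIF1 at 37 °C, the aligned SAM1 mRNA level of 7.6 was below 8.2 in wild-type DED1 at 37 °C, 9.2 in wild-type TIF1 at 30 °C and 10.6 in wild-type DED1 at 15 °C. Of the 36 sulfur and methionine genes listed, 16 passed, with a median footprint difference of 0.18, and the SAM pair were the members past 2-fold among those 16. The leading footprint difference of any gene with a standard name was that of SNZ1, a vitamin B6 synthesis gene. SNZ1 had 449 reads in wild-type DED1 and 13 in wild-type TIF1, and its difference of 5.19 has a counting interval of 4.41 to 6.12. Its mRNA difference was 0.9. SNZ1 passed the abundance floor only through its levels in wild-type DED1, and with a pseudocount of 10 its footprint difference was 3.35 and its TE difference 2.57 in place of 4.29. The remaining genes with a standard name and 2-fold higher footprints had smaller differences, from 1.01 for LSM3 to 1.22 for the glucose transporter gene HXT4, and included PDR15, DUR12 and ALT2. YPR108W-A and YOL013W-A, IDs with no standard name in the reference table, had footprint differences of 5.89 and 3.98. In footprints, LSM3, PDR15, DUR12, ALT2 and YPR108W-A also passed the abundance floor only through their levels in wild-type DED1.

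Genes of leucine synthesis had fewer footprints in wild-type DED1. LEU1, which acts in the middle of the leucine pathway, had 4390 reads in wild-type DED1 and 17670 in wild-type TIF1, a footprint difference of -1.92 with an mRNA difference of -1.1. OAC1, a mitochondrial carrier of oxaloacetate, had 560 reads in wild-type DED1 and 1959 in wild-type TIF1. Its footprint difference of -1.72 came with an mRNA difference of 0, so its TE difference was also -1.72. BAT1, the mitochondrial branched-chain aminotransferase, had a footprint difference of -1.22 and an mRNA difference of -0.9. Of the 14 genes listed, 13 passed, with a median footprint difference of -0.49 and a median mRNA difference of -0.1. Footprint values were below 0 for 11 of the 13, and 3 were past 2-fold lower, against 0.503% of all genes. LEU2 was not analysed here. The median lysine synthesis gene had a footprint difference of -0.04 and the median arginine gene one of 0.20, so the amino acid pathways did not share 1 direction. In the arginine list, CAR2, which breaks down ornithine, was past 2-fold lower at -1.13.

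Mating genes had fewer footprints in wild-type DED1, and both strains expressed the genes of a cells. STE2, the a-cell receptor for alpha factor, had an aligned footprint level of 9.25 in wild-type DED1 and 9.84 in wild-type TIF1. STE3, the alpha-cell receptor, lay under the abundance floor, with 136 reads in wild-type DED1 and 172 in wild-type TIF1. SAG1, the alpha-cell agglutinin, had 8 and 16 reads, and the alpha-factor genes were not analysed here. AGA1, the cell wall anchor of the a-cell agglutinin, had the lowest footprint difference of the 3974 genes, -2.64, with 254 reads in wild-type DED1 and 1686 in wild-type TIF1. The AGA1 mRNA difference was -0.5, which left a TE difference of -2.14. Its partner AGA2 had a footprint difference of -1.28 and an mRNA difference of -1.2, and the a-factor gene MFA1 had -1.15 and -1.0. SST2, which switches off the pheromone G protein, had a footprint difference of -1.02 and an mRNA difference of -0.1. These were the 4 members past 2-fold among 23 of 31 listed genes that passed, against 0.503% of all genes, and 17 of the 23 had a footprint difference below 0. The median was -0.30. The second a-factor gene, MFA2, had the highest footprint value of the list, at 0.51.

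Several iron uptake genes had fewer footprints in wild-type DED1, most of them under the abundance floor. FET3, the ferroxidase of high-affinity iron uptake, had 704 reads in wild-type DED1 and 3990 in wild-type TIF1, a footprint difference of -2.41 and an mRNA difference of -1.3. Its partner permease FTR1 had a footprint difference of -0.97 and an mRNA difference of -0.4. Of 35 listed iron and copper genes, 14 passed, and FET3 was the member past 2-fold in footprints. The 14 did not move as a group: their median footprint difference was -0.04, against -0.016 for all genes, with 6 above 0 and 8 below. Another 12 were in both tables under the floor, and 8 of those had footprints 2-fold or more lower. Without any floor, 9 of 26 members were thus past 2-fold lower, against 0.773% of all 4915 genes with reads in both strains, and none was past 2-fold higher, against 1.06%. The members named next were chosen after their values were seen. The siderophore transporter genes SIT1, ENB1 and ARN1 had 87, 85 and 50 reads in wild-type DED1, against 333, 299 and 155 in wild-type TIF1. Their footprint differences were -1.85, -1.72 and -1.55, and their counting intervals stayed below 0. ARN2 and FRE2 rested on at most 21 reads in a strain, and their counting intervals included 0.

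Heat-shock chaperone genes were lower in wild-type DED1 as a group, by less than 2-fold for all but 1 member in footprints. Of 33 genes listed, 32 passed, and 30 of these had a footprint difference below 0, with a median of -0.54 against -0.016 for all genes. The median mRNA difference of the list was -0.4. SSA4, the strongly heat-induced Hsp70, was the member past 2-fold, with 1184 reads in wild-type DED1 and 3169 in wild-type TIF1 and a footprint difference of -1.33. Its mRNA difference was -0.2. The aligned SSA4 footprint level was 8.36 in wild-type DED1 at 37 °C and 9.69 in wild-type TIF1 at 37 °C, and both were above the 7.05 of wild-type TIF1 at 30 °C. Among the other chaperones, HSP82 had a footprint difference of -0.86, HSP104 of -0.81 and the Hsp90 helper AHA1 of -0.85. On the list, HSP26 and the heat-shock gene HSP150, which does not encode a chaperone, were the members above 0. HAC1, the activator of the unfolded protein response, had a footprint difference of -1.19 and an mRNA difference of -0.1. The other genes with 2-fold lower footprints ranged from -1.25 for ARO10, of aromatic amino acid breakdown, to exactly 2-fold for GCY1. They included DIC1, a mitochondrial dicarboxylate carrier, DIP5, a permease of acidic amino acids, and UBC4, a ubiquitin-conjugating enzyme.

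General stress, trehalose and glycogen genes were lower mainly in mRNA. Of 42 genes listed, 35 passed, and 7 of these had mRNA at least 2-fold lower, against 2.34% of all genes, with none 2-fold higher. The median mRNA difference was -0.7 and the median footprint difference -0.32. DDR2, a stress-induced gene, had an mRNA difference of -2.1 and a footprint difference of -0.22. TSL1 and TPS2, subunits of the trehalose synthesis complex, had mRNA differences of -1.2 each and footprint differences of -0.69 and -0.44. RTC3 had the lowest mRNA difference of the 3974 genes, -2.8, and a footprint difference of -1.10. The aligned RTC3 mRNA level was 5.1 in wild-type DED1 at 37 °C, 7.9 in wild-type TIF1 at 37 °C, 7.1 in wild-type TIF1 at 30 °C and 8.7 in wild-type DED1 at 15 °C, so the column of wild-type DED1 at 37 °C was the low one. Proteasome genes had a median mRNA difference of -0.3 and a median footprint difference of -0.08.

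**Figure D3:**
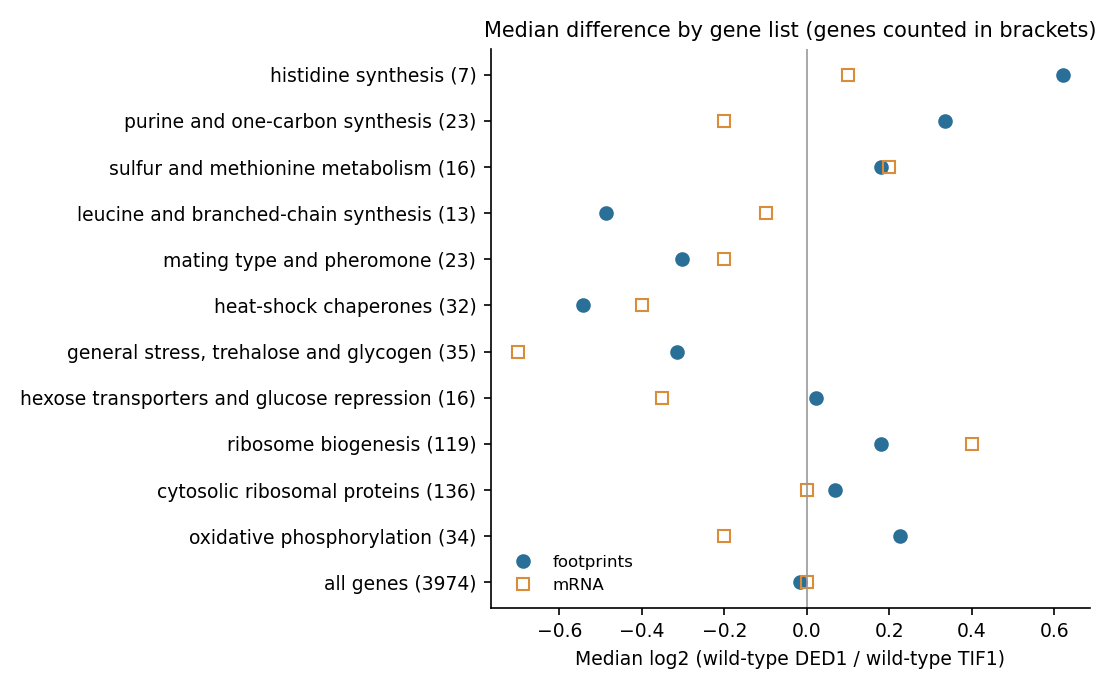
Median log2 difference (horizontal) of wild-type DED1 over wild-type TIF1 at 37 °C for 11 gene lists and for all genes compared, with footprints as filled circles, mRNA as open squares and the number of genes in brackets. Histidine and purine genes lie right of 0 in footprints, and chaperone, leucine and mating genes lie left of it.

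Most TE differences sat on the mRNA side. A TE difference is the footprint minus the mRNA difference, and the mRNA differences had the wider spread, 0.45 against 0.34. The pattern thus follows in part from that definition. TE was at least 2-fold higher in wild-type DED1 for 97 genes, 2.44%, and at least 2-fold lower for 70 genes, 1.76%. Of the 97, 54 had mRNA at least 2-fold lower and 9 had footprints at least 2-fold higher, and 75 had footprints within 0.5 of 0. Of the 70, 36 had mRNA at least 2-fold higher and 9 had footprints at least 2-fold lower, and 51 had footprints within 0.5 of 0. GCN4, HIS4, ADE17, AGA1 and OAC1 were thus in the minority, in which TE moved with the footprints.

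Ribosomal protein genes past 2-fold were on the low mRNA side. Of 138 listed genes, 136 passed, and 14 had mRNA at least 2-fold lower, against 2.34% of all genes, while none was 2-fold higher. Their median mRNA difference was 0 and their median footprint difference 0.07, so the 14 were a minority. RPS29A had an mRNA difference of -1.8 and a footprint difference of -0.12. The near-identical pairs RPL12A with RPL12B, RPL21A with RPL21B and RPS23A with RPS23B had mRNA differences between -1.1 and -1.4. The sources used here do not say how reads that match both members were counted, so single values of such pairs are uncertain. In TE, 14 ribosomal protein genes were 2-fold higher, against 2.44% of all genes.

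Other genes with low mRNA had smaller footprint differences. PMP3, a small membrane protein gene, had an mRNA difference of -2.0 and a footprint difference of -0.31. SSS1, a subunit of the protein translocation channel, had -1.6 and -0.07. STE18, the gamma subunit of the pheromone G protein, had -1.6 and -0.36. CUP1-1 and CUP1-2, copies of the metallothionein gene whose entries are identical in the files, had -1.5 and -0.06, and the copies count as 1 measurement. PMA2 had -2.1 and 0.02, with 5293 footprint reads in wild-type DED1 and 5541 in wild-type TIF1. Because PMA2 is a close relative of the far more abundant proton pump gene PMA1, its value is uncertain. Among the glucose transporters, HXT2 had an mRNA difference of -1.4 and a footprint difference of 0.16, and 6 of the 16 hexose transport and glucose repression genes that passed were 2-fold higher in TE, against 2.44%. HXT6 and HXT7, 2 of the 6, are near-identical copies.

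Among the genes with high mRNA in wild-type DED1 were several of chromosome structure and division, a grouping made after the values were seen, and several ribosome biogenesis factors. The spindle motor genes CIN8 and KIP1 had mRNA differences of 1.7 and 1.2. Of the SMC genes, SMC1 had 1.4, SMC2 1.1, SMC4 1.1 and SMC5 1.2, and the other SMC genes are not given here. The topoisomerase genes TOP1 and TOP2 had 1.1 and 1.3. MYO1, the myosin of the division ring, had an mRNA difference of 1.8, and the nuclear pore proteins MLP1 and MLP2 had 1.4 and 1.8. In mRNA, CIN8, KIP1, SMC1, TOP2, MYO1, MLP1 and MLP2 passed the abundance floor only through their levels in wild-type DED1. With a pseudocount of 10, mRNA differences were 1.37 for CIN8, 1.21 for SMC1 and 1.22 for TOP2. They were 1.55 for MYO1, 1.16 for MLP1 and 1.30 for MLP2. SMC2, SMC4, SMC5 and TOP1 were named for this grouping. No list was made for it, so its share of genes past 2-fold is unknown. On the list of cell-cycle regulators, 1 of the 44 genes that passed had mRNA at least 2-fold higher, against 1.79% of all genes. The median mRNA difference of that list was 0. The MYO1 footprint difference was -0.06, that of MLP2 -0.05 and that of CIN8 -0.09, while KIP1 had -0.37 with a counting interval of -0.64 to -0.12.

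Ribosome biogenesis genes had higher mRNA in wild-type DED1 across most of the list. Of 122 genes, 119 passed, and 12 had mRNA at least 2-fold higher, against 1.79% of all genes, with none 2-fold lower. The median mRNA difference was 0.4 and 100 of the 119 were above 0. Footprint differences were above 0 for 100 of the 119 as well, with a median of 0.18, and none was past 2-fold. NOP7, an assembly factor of the large subunit, had an mRNA difference of 1.5 and a footprint difference of 0.11. LOC1, a nucleolar RNA-binding protein, had 2.1 and 0.53. LOC1 mRNA was also under an abundance of 100 in wild-type TIF1 alone, and with a pseudocount of 10 its mRNA difference was 1.59.

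By their median, the 71 genes with higher mRNA were low in wild-type TIF1 at 37 °C rather than high in wild-type DED1, when set beside the 30 °C column, but HIS3 and DED1 went the other way. The 71 were chosen by this difference, so the values are a description. Relative to wild-type TIF1 at 30 °C, their median mRNA level was 0 in wild-type DED1 at 37 °C and -1.2 in wild-type TIF1 at 37 °C. In wild-type TIF1 at 37 °C, 46 of the 71 lay at least 2-fold below the 30 °C level, where 2.94% of all genes did. In wild-type DED1 at 37 °C 4 of the 71 did, against 2.19% of all genes. For the mutants the medians were 0.1 in ded1-ts and -0.2 in tif1-ts, so tif1-ts cells of the same experiment were not low in these mRNAs. MYO1 shows the pattern, with an aligned mRNA level of 7.0 in wild-type DED1 at 37 °C, 5.2 in wild-type TIF1 at 37 °C, 8.0 in wild-type TIF1 at 30 °C and 6.4 in wild-type DED1 at 15 °C. The median footprint levels of the 71, again relative to 30 °C, were -0.02 in wild-type DED1 and -0.10 in wild-type TIF1.

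The 93 genes with lower mRNA showed the opposite placement. Relative to wild-type TIF1 at 30 °C, their median mRNA level was -0.9 in wild-type DED1 at 37 °C and 0.3 in wild-type TIF1 at 37 °C. In the mutants it was -1.1 in ded1-ts and -0.1 in tif1-ts, so the column of ded1-ts, from the same experiment as wild-type DED1, was low too. It was 0.2 in the wild-type DED1 strain at 15 °C.

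The mutant libraries of the same experiments gave a second, separate pair: ded1-ts minus tif1-ts at 37 °C, centred in the same way. Among the 93 genes with mRNA 2-fold lower in wild-type DED1, 53 (57%) were also 2-fold lower in ded1-ts than in tif1-ts, where 4.05% of all genes were. These 53 made up 32.9% of the 161 genes lower in the mutant pair. Among the 71 genes with higher mRNA, 5 (7.04%) were also 2-fold higher in the mutant pair, against 2.47% of all genes, and their median difference there was 0.21. HIS3, at 2.51, and DED1, at 1.29, were among the 5. MYO1 and LOC1 had mutant differences of -0.34 and -0.47. Low mRNA thus recurred for 57% of genes and high mRNA for 7.04%, and the difference of these shares was not tested. The ribosome biogenesis list had a median mRNA difference of 0.4 in the wild-type pair and -0.07 in the mutant pair. In the mutant pair, 0 of its 119 genes were 2-fold higher and 2 were 2-fold lower. The general stress list had mRNA medians of -0.7 and -0.1. The mutant pair has the same confounding of helicase gene and experiment, and its alleles differ too.

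**Figure D4:**
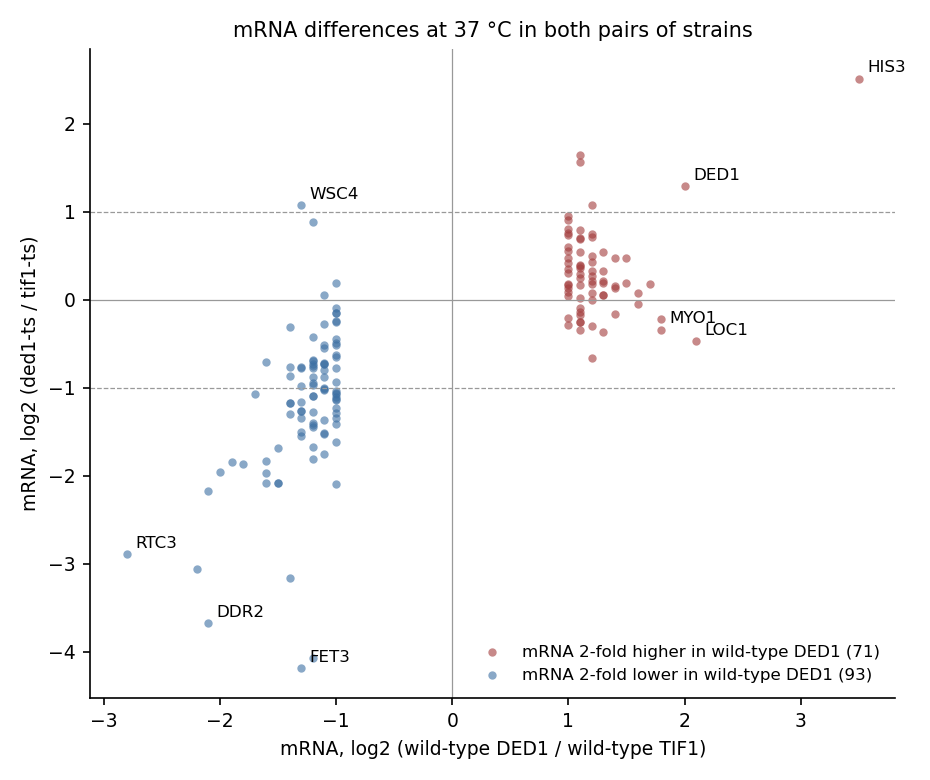
mRNA difference in the wild-type pair (horizontal, log2 of wild-type DED1 over wild-type TIF1) and in the mutant pair (vertical, log2 of ded1-ts over tif1-ts) at 37 °C for the genes past 2-fold in the wild-type pair, with 1 point per gene and dashed lines at 2-fold. Of the 93 genes on the left, 53 lie below the lower dashed line, and of the 71 on the right, 5 lie above the upper one.

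Footprint differences recurred in part. Of the 16 genes with higher footprints in wild-type DED1, 6 (37.5%) were also 2-fold higher in the mutant pair, against 4.48% of all genes, and 5 were 2-fold the other way. Of the 20 genes with lower footprints, 10 (50%) were 2-fold lower in the mutant pair, against 5.13% of all genes, and 2 were 2-fold the other way. The 6 and the 10 were 3.37% and 4.9% of the larger mutant sets of 178 and 204 genes. AGA1 had -2.64 in the wild-type pair and -2.74 in the mutant pair, FET3 had -2.41 and -4.91, and GCN4 had 1.28 and 3.71. The chaperone list was the opposite way round in the mutant pair, with a median footprint difference of 1.06 there. The purine and one-carbon list had medians of 0.33 in the wild-type pair and -0.61 in the mutant pair. For leucine synthesis the medians were -0.49 and 0.05, for iron and copper genes -0.04 and 0.165, and for ribosome biogenesis 0.18 and -0.15. The mating list stayed on its side, at -0.30 and -0.85, as did the histidine list, at 0.62 and 0.43. For TE, 53 of the 97 higher genes (54.6%) recurred, against 4.91% of all genes, and 11 of the 70 lower genes (15.7%), against 4.96%.

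mRNA differences followed gene length, and footprint differences hardly did. Length here is that of the annotated gene from start to stop codon, introns included, and 3972 of the 3974 genes had one. The median mRNA difference was -0.2 in the shortest of 5 equal length classes and 0.1 in the longest, and the Spearman rho with length was 0.25. The median footprint difference lay between -0.06 and 0.04 in all 5 classes, with a rho of -0.04. TE, from which the mRNA difference is subtracted, ran the other way, with a rho of -0.26. Of the 93 genes with lower mRNA, 55 were in the shortest class. Of the 71 with higher mRNA, 28 were in the longest. The median length was 1863 bases for the 71 and 642 for the 93, against 1335 for all genes. In the mutant pair the rho of mRNA with length was 0.13. Gene length thus moved with the mRNA and TE differences above, and its part in them was not tested.

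**Figure D5:**
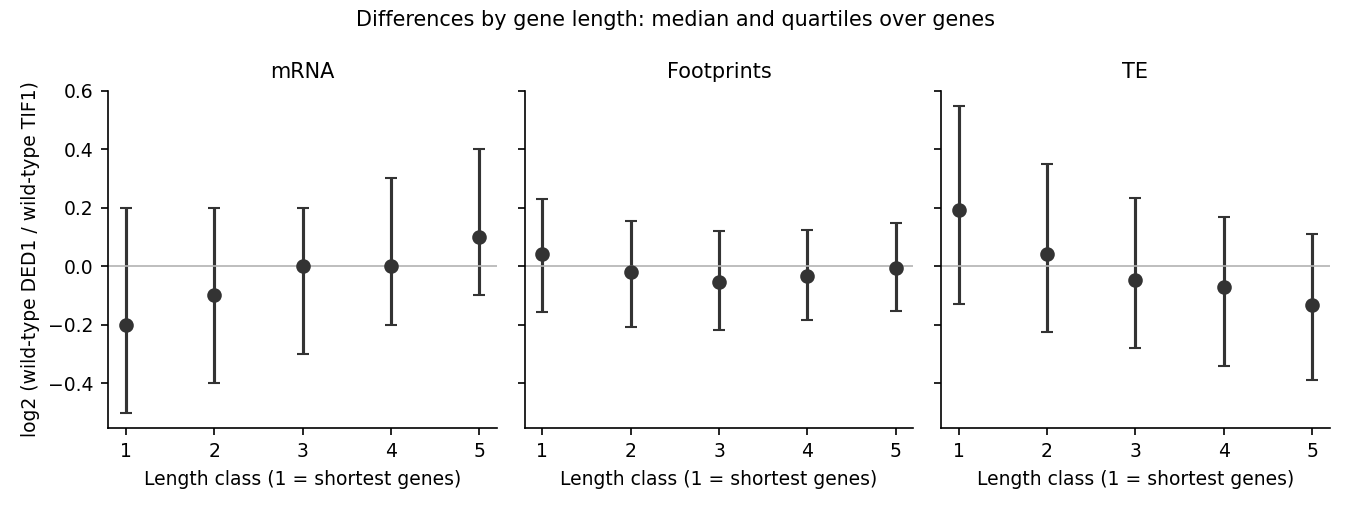
Median (points) and quartiles (bars) over genes of the log2 difference of wild-type DED1 over wild-type TIF1 at 37 °C, for mRNA, footprints and TE, in 5 classes of gene length from shortest to longest. The mRNA medians run from -0.2 to 0.1 and the TE medians from 0.19 to -0.13, while the footprint medians stay near 0.

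For all 36 genes past 2-fold in footprints, the counting interval of the difference excluded 0. For 20 of them it stayed past 2-fold. The 36 were chosen on these same reads, so intervals that exclude 0 follow largely from that choice. The intervals cover counting error alone: without molecular identifiers, copies of 1 molecule count as several reads, and differences between cultures are left out. A further 4 genes were at 0 reads in wild-type TIF1 and had at most 10 reads in wild-type DED1, and none was at 0 reads in wild-type DED1.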

How the data were processed

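The authors deposited log2 values of normalized abundance, 1 per gene, assay and group of 2 labelled replicates, in a table for each mutant and temperature. The sources used here do not say how replicates were combined, how reads were counted or whether strand was used. The submitters' processing notes name, without roles, the build sacCer2 and the tools TopHat2 2.0.7, Bowtie2 2.0.6, CASAVA 1.8 and DESeq.

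The wild-type columns of the ded1-ts and tif1-ts 37 °C tables were joined by systematic name. Their differences were centred on the median gene, which removed offsets of 1.64 (footprints) and 1.6 (mRNA) between the tables, normalized separately. Footprint values below -5 were read as 0 reads. Genes entered from a mean abundance of 100 in each assay, taken before centring, and differences of at least 2-fold were counted. A test was not possible with 1 value per group. Footprint reads were estimated from the spacing of low values: of genes up to 10 reads, 100% in wild-type DED1 and 92.7% in wild-type TIF1 came within 0.1 of a whole number. Intervals are exact binomial at 95%. Names and lengths came from a RefSeq gene table of another assembly, so no coordinates or sequences are given, and 2 IDs did not match it. The computation was tested on simulated data and run in Python 3.11.15 with pandas 2.3.3 and scipy 1.17.1. Alternatives changed the abundance floor, the centring, a pseudocount, shared entries, mRNA digits and the pair of strains.

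Named genes were the 15 highest and 15 lowest mRNA, 10 TE and 5 footprint differences per direction, and the 3 leading members of each of 40 lists for mRNA and TE. Other genes past 2-fold in footprints were named after their values were seen. The comparison, the members and the lists were chosen with earlier results of these data known, and the lists described were picked for their values.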

Additional observations from a re-analysis of the deposited data

Results flagged for a closer look

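Several genes past 2-fold between the wild types were past 2-fold in the opposite direction in the mutant pair, and the difference between the pairs was not tested. Each value is a log2 difference, first of wild-type DED1 minus wild-type TIF1 and then of ded1-ts minus tif1-ts, all at 37 °C. In footprints, ADE17 had 1.94 in the wild-type pair and -2.82 in the mutant pair. SAM1 had 1.20 and -2.05, and SAM2 had 1.21 and -1.15. ADE12, another purine gene with 2-fold higher footprints in wild-type DED1, had 0.07 in the mutant pair. Of the stress-related genes, SSA4 had -1.33 in the wild-type pair and 2.06 in the mutant pair, and HAC1 had -1.19 and 1.49. In mRNA, WSC4, which encodes a cell surface protein, had -1.3 in the wild-type pair and 1.07 in the mutant pair.

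The other reversals belonged to IDs that the reference table does not name. YOL013W-A had a footprint difference of 3.98 in the wild-type pair and -2.04 in the mutant pair, with 20881 reads in wild-type DED1 and 1414 in wild-type TIF1. YPR108W-A had 5.89 and -1.21, with 4299 reads in wild-type DED1 and 77 in wild-type TIF1. Their mRNA differences in the wild-type pair were -1.9 and -2.2, opposite in sign to their footprints.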

How the results depend on the processing

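No paired analysis was possible because the files hold 1 value per group, and for the same reason leaving out each replicate, which had been planned, was not run. Counts are given as higher and lower in wild-type DED1, where the values above were 71 and 93 genes for mRNA, 16 and 20 for footprints and 97 and 70 for TE. With a floor of 10, footprints gave 37 and 31 and TE 106 lower. With a floor of 500, which left 1013 genes, mRNA gave 5 and 35, footprints 8 and 5 and TE 32 and 5. Without a floor, footprints gave 52 and 38 and TE 155 and 114. Without centring, mRNA gave 3686 and 1 and footprints 3913 and 0, as the table offset stays in. Equal sums moved the median of all genes by 0.12 for mRNA and gave 98 and 52. Centring on ribosomal protein genes gave 81 and 91 for TE and 13 and 23 for footprints. A pseudocount of 10 gave 38 higher for mRNA and 44 lower for TE. In place of the wild types, ded1-ts minus tif1-ts gave 161 lower for mRNA, 178 and 204 for footprints and 195 and 197 for TE. The added digits of mRNA, an alternative chosen after seeing the data, gave 59 and 81.

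Of 60 values of named genes, those that changed sign did so without centring or in the mutant pair. Without centring, mRNA came to 0.1 for CUP1-1, CUP1-2 and HRT1 and 0.2 for ASG7, ATG44 and COX5B, and SSA4 footprints to 0.31. In the mutant pair, mRNA was -0.47 for LOC1, -0.34 for MYO1, -0.22 for MLP2, -0.16 for REV1 and -0.05 for CHM7. TE there was 1.05 for LOC1, 0.82 for MYO1, 0.72 for KIP1 and 0.39 for CHM7, and footprints were 2.06 for SSA4 and -2.82 for ADE17. The cause of these changes was not tested, apart from the offset. Footprint depth limits genes of few reads, such as SNZ1, and the mRNA depth is unknown.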
